A study of Homo sapiens with 6 samples.

Results

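The genes described here encode the protein assembly that is built on the centromere and carries the chromosome on the spindle. They were taken by name: protein-coding genes whose symbol is CENP plus 1 or 2 letters (21 genes), together with NDC80, NUF2, SPC24, SPC25, MIS12, DSN1, NSL1, PMF1, KNL1, ZWINT, SKA1, SKA2 and SKA3 (13 genes). The rule gave 34 genes of the 58299 in the count table, and all 34 passed the filter on low counts. Poly(A)-selected RNA was measured in AC16 cells after 48 h with 100 nM doxorubicin (3 libraries) or with the vehicle, 0.1% DMSO (3 libraries). AC16 is a proliferating human line obtained by fusing ventricular cardiomyocytes with transformed fibroblasts, and both groups are cells of this same line with no genetic change between them. Doxorubicin is an anthracycline that traps type II topoisomerases on DNA. Nothing in the labels states that libraries of a group were grown as separate cultures. The p-values therefore reflect only the spread among these 6 libraries, which may be technical.

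The centromere is marked by nucleosomes that hold CENP-A, a histone H3 variant, in place of the usual H3. A constitutive network of CENP proteins sits on this chromatin through the cell cycle, and in mitosis it recruits the Mis12, Knl1 and Ndc80 complexes, of which Ndc80 grips the microtubule. The Ska complex strengthens that grip, and CENP-E and CENP-F form part of a fibrous corona outside it. Transcripts of many of these genes are made mainly in G2 and mitosis, and cells that leave the cycle are known to lose them.

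Column totals ranged from 17252862 to 19571731 counts. Levels are given as CPM, each library's counts scaled to a common total with the TMM correction for library composition, and as CPM per kilobase of exon where genes are set side by side. Markers of the heart muscle cell were almost absent: 0 of 10 reached 1 CPM in all DMSO libraries, MYH6, MYH7, MYL2, MYL7 and RYR2 had 0 counts there, and the 10 together came to 0.726 to 1.49 CPM in DMSO and 7.44 to 8.51 CPM after doxorubicin. Most of the sum after doxorubicin was NPPB, at 0.335, 0.417 and 1.10 CPM across the DMSO libraries and 5.63, 6.54 and 7.39 CPM after doxorubicin. All 8 fibroblast or mesenchymal markers were present, at 15750 to 18012 CPM summed in DMSO and 5509 to 8175 CPM after doxorubicin. COL1A1 was the largest part of this sum in each library. POSTN went the other way, from 65.0, 50.7 and 47.4 to 68.3, 87.3 and 92.1 CPM, and DCN overlapped between the groups. Endothelial markers (4 genes, 1.23 to 1.93 CPM in DMSO and 2.57 to 3.64 CPM after doxorubicin) and leukocyte markers (3 genes, 0.782 to 1.71 and 1.58 to 2.41 CPM) were near 0. The 3 epithelial markers came to 32.6 to 45.0 and 92.6 to 100.8 CPM, nearly all of it KRT8. The part of these shifts in the results below was not tested.

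Of the 34 genes, 25 fell and 2 rose after doxorubicin, and 7 were not called (edgeR quasi-likelihood test, adjusted p under 0.05 over 15358 genes). Among all genes tested, 32.0% were called lower, 32.7% higher and 64.7% in either direction. Falls of at least 2-fold were called in 12 of the 34 genes, against 6.26% of all genes tested. Neither rise reached 2-fold, which 14.2% of all genes tested did. The median log2 fold change of the 34 genes was -0.74, beside -0.0013 over all genes tested. In the same 25 genes every doxorubicin library lay below every DMSO library (34.3% of all genes), and in 2 genes every doxorubicin library lay above (34.8%). The falls were uneven, and transcripts of the histone variant CENP-A, the corona proteins and the Ndc80 complex fell most. Those of several subunits of the inner network and of the Mis12 complex were not called, and CENPW and CENPP rose. In bulk RNA, fewer cells in mitosis and less of a transcript in each such cell cannot be told apart.

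**Figure D1:**
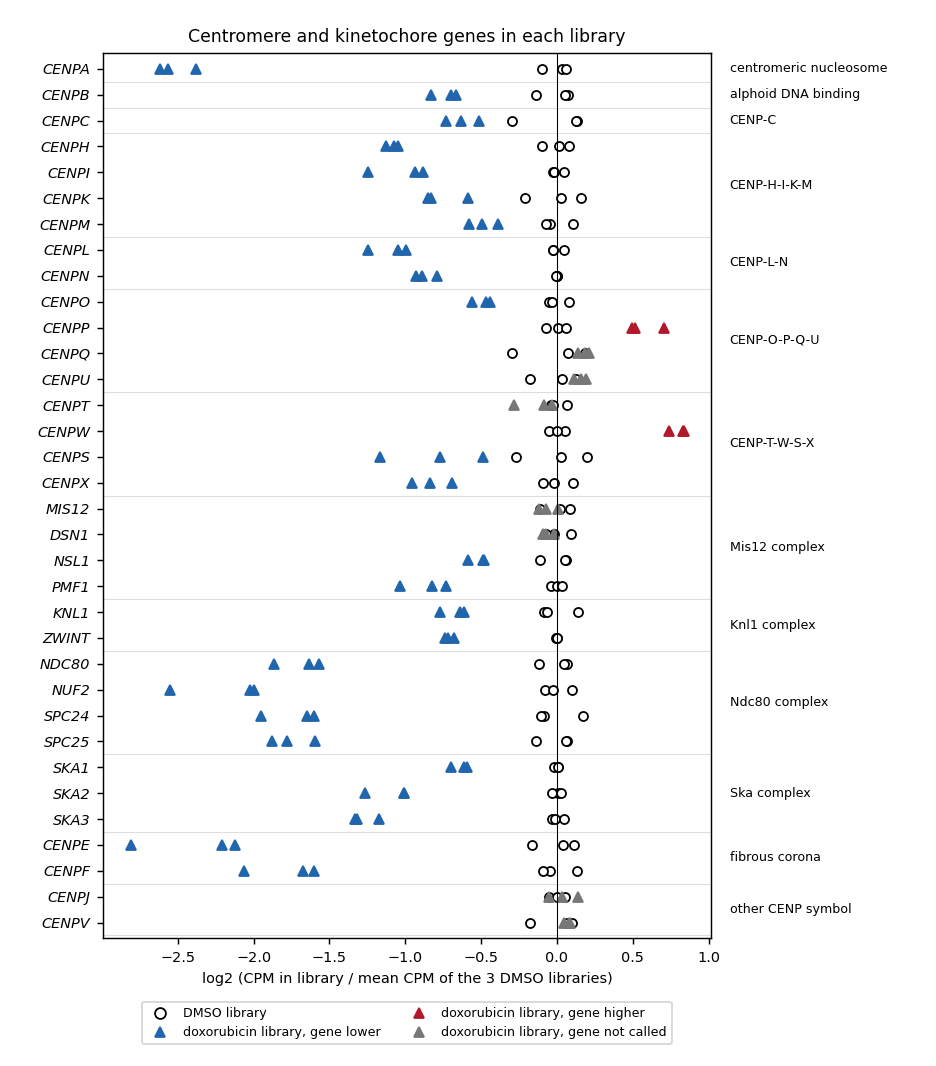
Each row is a gene and each symbol a library, placed at the log2 ratio of its CPM to the mean of the 3 DMSO libraries; open circles are DMSO, triangles doxorubicin, and colours give the call. The doxorubicin triangles stand clear to the left of the circles in 25 rows, clear to the right in CENPP and CENPW, and among the circles in 7 rows.

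Together the 34 genes took 0.258%, 0.251% and 0.242% of all counts in the DMSO libraries, and 0.138%, 0.148% and 0.145% in the doxorubicin libraries. The summed share was thus 1.75-fold lower after doxorubicin, at 0.144% ± 0.00538 against 0.251% ± 0.00833 (SD, n = 3), and the groups did not overlap (two-sided exact permutation test, p = 0.10, the smallest that 3 against 3 allows). Doxorubicin replicate 1 stood apart. It was the lowest doxorubicin library for 23 of the 34 genes and for 11 of the 12 that fell at least 2-fold. Its median difference from the other doxorubicin libraries was -0.09 on the log2 scale over the 34 genes. In CENPE it was at 15.1 CPM against 24.3 and 22.8, and in NUF2 at 15.6 against 22.8 and 22.4. The gap was smaller in CENPA, at 6.82 against 7.07 and 8.06 CPM. Across genes, chi-square over its degrees of freedom was 9.39 and 9.12 for its pairs with doxorubicin replicates 2 and 3. Between replicates 2 and 3 this value was 2.82, and for pairs of DMSO libraries 4.81 to 8.66. Without doxorubicin replicate 1, 25 genes fell and 2 rose.

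**Figure D2:**
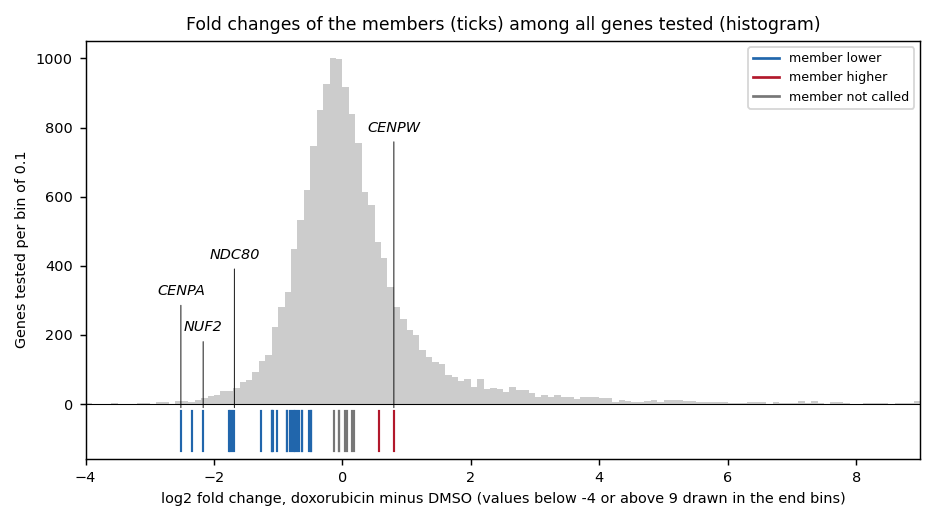
The grey histogram counts all 15358 genes tested by log2 fold change in bins of 0.1, and each tick under it is 1 of the 34 genes, coloured by call. Ticks run from CENPA at -2.51 to CENPW at 0.80, and most lie left of the histogram's centre.

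Many genes of the G2 and mitosis programme carry a short promoter element, the cell cycle genes homology region (CHR), through which the DREAM complex represses them in resting cells and MuvB complexes with B-MYB or FOXM1 activate them. Promoter windows of 250 bases before to 50 bases after the gene start were taken from RefSeq (GRCh38.p14), and 29 of the 34 genes had one; CENPH, CENPJ, CENPL, CENPM and KNL1 did not. The letters TTTGAA, and likewise the letters TTTAAA, were searched on both strands as CHR, and at least 1 match was in 12 of the 29 windows (41.4%), compared with 15.5% of 10511 tested protein-coding genes and 24.3% of all 27305 promoters in the table. Within 50 bases of the start they were in 10 of 29 (34.5%), compared with 4.40% and 7.75%. SPC24, SKA2 and CENPI were among the genes that fell without such letters in their windows. Printed below are windows of 4 genes that fell and hold CHR letters, and of the 2 that rose. These windows run from 120 bases before to 12 after the start, with CHR letters in capitals. They lie at chr2:26785936-26786067 (CENPA, plus strand), chr4:103198332-103198463 (CENPE, minus), chr18:2571437-2571568 (NDC80, plus), chr2:168890419-168890550 (SPC25, minus), chr6:126339995-126340126 (CENPW, plus) and chr9:92325348-92325479 (CENPP, plus).
CENPA: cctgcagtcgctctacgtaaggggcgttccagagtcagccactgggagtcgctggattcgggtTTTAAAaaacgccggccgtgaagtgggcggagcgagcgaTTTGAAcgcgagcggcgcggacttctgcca
CENPE: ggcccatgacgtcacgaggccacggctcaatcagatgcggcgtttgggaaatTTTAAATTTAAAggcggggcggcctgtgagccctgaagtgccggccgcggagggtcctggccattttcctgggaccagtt
NDC80: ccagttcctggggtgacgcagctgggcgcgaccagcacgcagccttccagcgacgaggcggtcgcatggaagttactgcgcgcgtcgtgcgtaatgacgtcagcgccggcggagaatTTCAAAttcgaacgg
SPC25: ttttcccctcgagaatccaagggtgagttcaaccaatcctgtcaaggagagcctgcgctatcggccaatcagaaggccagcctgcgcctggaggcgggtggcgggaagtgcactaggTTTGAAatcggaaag
CENPW: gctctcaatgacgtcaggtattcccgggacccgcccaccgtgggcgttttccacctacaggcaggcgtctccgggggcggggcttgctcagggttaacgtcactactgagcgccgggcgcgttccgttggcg
CENPP: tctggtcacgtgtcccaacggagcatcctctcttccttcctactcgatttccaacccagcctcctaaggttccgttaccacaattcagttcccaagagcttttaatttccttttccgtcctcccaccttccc

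The match in CENPA nearest the start begins 18 bases before it, and those in NDC80 and SPC25 begin 3 bases before it and cross it. In CENPE a doubled stretch begins 68 bases before the start. Each window belongs to 1 RefSeq start, which for some genes lies inside the gene as counted. The counted CENPA begins at chr2:26764289, and the counted SPC25, on the minus strand, at chr2:168913371, both well upstream of their windows. The window of NUF2 also lies inside its counted gene. Other starts were not searched. All 12 genes with CHR letters in the window fell (CENPA, CENPC, CENPN, CENPO, ZWINT, NDC80, NUF2, SPC25, SKA1, SKA3, CENPE and CENPF), and 9 of the 17 without them fell. Of 12963 tested protein-coding genes, 35.3% were called lower, a share that was not split by letters. Among the 29 genes the median log2 fold change was -1.48 with CHR letters and -0.52 without. Over tested protein-coding genes with a window it was -0.08 with and -0.02 without. CCAAT was in 15 of the 29 windows (51.7%) and in 36.3% of tested protein-coding genes; E2F letters (any of TTCCCGC, the variant TTGGCGC, and the variant TTTGGCG) were in 10 of 29 (34.5%) and 16.3%. The median among the genes was -0.82 with and -0.68 without CCAAT, and -0.82 with and -0.63 without E2F letters. With E2F letters 9 of 10 genes fell, and without them 12 of 19. For CCAAT these counts were 11 of 15 and 10 of 14. Over tested protein-coding genes the median was -0.12 with and -0.015 without E2F letters, and -0.05 with and -0.02 without CCAAT. A letter match describes the sequence and is not a measured binding site.

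**Figure D3:**
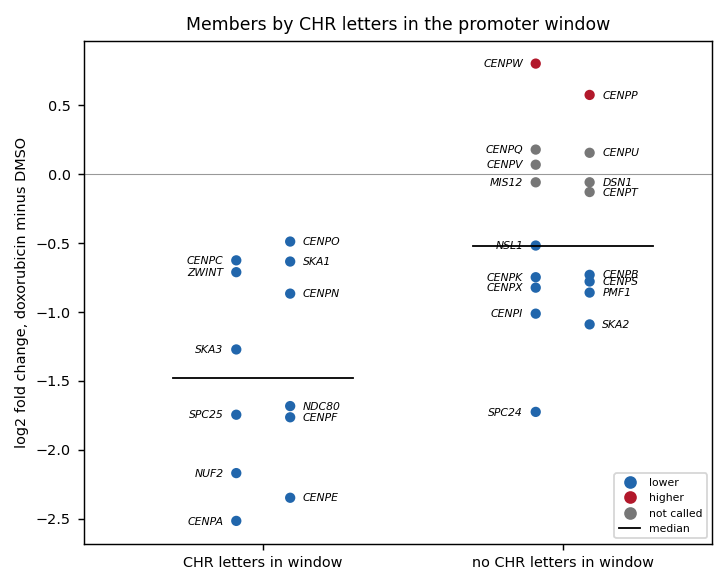
Each point is 1 of the 29 genes with a promoter window, placed by its log2 fold change and split by whether CHR letters occur in the window; black lines are medians (-1.48 and -0.52). The 12 points on the left are all in the colour for lower, while SPC24 is the lowest point on the right and CENPW the highest.

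CENPA (chr2:26764289-26801067, GRCh38), the gene for the centromeric histone, had the lowest fold change of the 34. Its CPM was 42.8, 39.2 and 43.6 across the DMSO libraries (replicates 1 to 3, the order kept throughout) and 6.82, 7.07 and 8.06 across the doxorubicin libraries. The groups were far apart, with a mean of 41.8 ± 2.36 against 7.32 ± 0.655 CPM (SD, n = 3), a 5.71-fold fall (log2 fold change -2.51 ± 0.10 SE, edgeR adjusted p = 3.5e-12). Of all genes tested, 0.195% had a lower log2 fold change. CENPB (chr20:3783851-3786690), whose protein binds a motif in alphoid satellite DNA, fell 1.66-fold, from 328 ± 25.7 to 198 ± 11.4 CPM. CENPC, the scaffold that links CENP-A nucleosomes to the outer kinetochore, fell 1.54-fold, from 14.9 ± 2.40 to 9.68 ± 0.744 CPM (edgeR adjusted p = 5.5e-04). Per kilobase of exon, CENPA was 10.5 to 15.6 times the level of CENPC in the DMSO libraries and 2.83 to 3.64 times after doxorubicin.

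The inner network is built of subcomplexes, and its 15 genes, CENPC included, split into 10 that fell, 2 that rose and 3 that were not called. All 4 genes of the CENP-H-I-K-M subcomplex fell. CENPH (chr5:69189548-69210357) fell most in it, from 41.6, 39.8 and 36.8 CPM in DMSO to 18.0, 18.7 and 19.1 CPM (2.12-fold, log2 fold change -1.08 ± 0.08 SE, edgeR adjusted p = 1.2e-08). CENPM (chr22:41938721-41947164) fell least, from 59.9, 58.8 and 66.6 CPM to 41.3, 47.1 and 43.9 CPM (1.40-fold, log2 fold change -0.49 ± 0.08 SE, adjusted p = 3.7e-05). In both genes the groups stayed apart. CENPI fell 2.02-fold, from 65.6 ± 1.80 to 32.5 ± 4.26 CPM, and CENPK 1.68-fold, from 45.2 ± 5.78 to 26.9 ± 2.82 CPM. CENPL and CENPN, which form the pair that reads the CENP-A nucleosome, also fell: CENPL from 43.4 ± 1.22 to 20.4 ± 1.83 CPM (2.13-fold) and CENPN from 93.4 ± 0.231 to 51.2 ± 2.55 CPM (1.82-fold).

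The genes of the CENP-O-P-Q-U subcomplex, which binds microtubules and docks the kinase PLK1, did not fall as a unit. CENPO (chr2:24793136-24822376) fell from 72.1, 65.9 and 66.8 CPM to 49.4, 50.2 and 46.3 CPM (1.40-fold, log2 fold change -0.49 ± 0.07 SE, edgeR adjusted p = 1.3e-05). CENPP (chr9:92325484-92620533) rose from 13.5, 12.8 and 13.9 CPM to 21.8, 19.1 and 18.9 CPM (1.49-fold, log2 fold change 0.57 ± 0.10 SE, adjusted p = 1.1e-04). In these 2 genes the groups did not overlap, and they moved in opposite directions. CENPQ was at 24.3, 26.2 and 18.8 CPM in DMSO and 26.3, 26.8 and 25.4 CPM after doxorubicin, and its 95% interval ran from -0.05 to 0.41 on the log2 scale (adjusted p = 0.16). CENPU, the docking subunit, was at 54.8, 58.5 and 47.3 CPM and 57.8, 61.1 and 59.8 CPM, with an interval of -0.01 to 0.32 (adjusted p = 0.10). For both the groups overlapped through DMSO replicate 2, and DMSO replicate 3 was the lowest library. With scaling by library totals only, CENPU was called higher (log2 fold change 0.20, edgeR adjusted p = 0.046). ITGB3BP, which encodes CENP-R, the remaining partner of this subcomplex, was at 23.8 ± 0.784 and 28.8 ± 2.15 CPM and rose 1.21-fold (adjusted p = 0.011), but was not called without DMSO replicate 2 (adjusted p = 0.050). The mean per-kilobase level of CENPO, CENPP, CENPQ and CENPU was 0.518 to 0.631 times that of CENPH, CENPI, CENPK and CENPM in DMSO and 0.948 to 1.05 times after doxorubicin.

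The libraries carry no strand, so reads from overlapping genes on opposite strands cannot be told apart, and this touches several of these genes. Of the exon bases of CENPP, 39.5% are also exonic in other genes, and opposite-strand IPPK shared most. IPPK was at 13.2 CPM in DMSO and 12.8 CPM after doxorubicin and not called (adjusted p = 0.77, edgeR). Any further genes that share exon bases with CENPP were not examined, and the part of shared bases in its rise was not tested. The shares of exon bases in other genes were 31.4% for CENPO, 20.1% for CENPN, 19.6% for CENPT and 11.7% for CENPU. In each of these the gene that shared most was on the opposite strand. For PMF1 the share was 23.3%, and that gene was the same-strand PMF1-BGLAP, with 3 counts in all libraries against 2087. In CENPS, 64.7% of exon bases are also exonic in other genes. The gene that shared most was CENPS-CORT, a read-through gene on the same strand, with 24 counts in all libraries against 266. The other members were at or under 9.53%.

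CENP-T, CENP-W, CENP-S and CENP-X are histone-fold proteins that form a nucleosome-like particle, and their genes moved in different directions. CENPW (chr6:126340174-126348875) had the highest fold change of the 34 and rose from 33.5, 31.2 and 32.3 CPM to 57.4, 53.9 and 57.7 CPM. The lowest doxorubicin library lay well above the highest DMSO library, and the rise was 1.74-fold (log2 fold change 0.80 ± 0.07 SE, edgeR adjusted p = 7.5e-08), with no exon base shared with another gene. CENPT, its direct partner, was at 97.0, 97.8 and 104 CPM in DMSO and 81.8, 97.5 and 94.2 CPM after doxorubicin, with a 95% interval of -0.28 to 0.02 (adjusted p = 0.13). CENPX (chr17:82018702-82024107) fell from 66.8, 70.2 and 76.7 CPM to 39.9, 36.8 and 44.1 CPM (1.77-fold, log2 fold change -0.82 ± 0.08 SE, adjusted p = 2.0e-07). CENPS had few counts, 46 to 63 per DMSO library and 24 to 39 per doxorubicin library, and fell 1.72-fold (adjusted p = 0.0088). How reads in its shared exon bases were counted is not given, so its low counts need not mean a scarce transcript. Per kilobase of exon, CENPW stood at 2.15 to 2.40 times CENPT in DMSO and at 3.85 to 4.89 times after doxorubicin.

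Between the inner network and the microtubule lies the Mis12 complex, of which 2 genes fell and 2 were not called. MIS12 was at 51.5, 53.9 and 47.1 CPM in DMSO and 46.9, 51.1 and 48.4 CPM after doxorubicin (95% interval -0.22 to 0.10 on the log2 scale, edgeR adjusted p = 0.51). DSN1 (chr20:36751791-36773818), the subunit that Aurora B phosphorylates, was at 68.2, 63.1 and 60.8 CPM and 60.2, 63.2 and 61.0 CPM (log2 fold change -0.06 ± 0.07 SE, interval -0.20 to 0.09, adjusted p = 0.47). For both, the libraries of the 2 groups were interleaved. PMF1 (chr1:156212993-156240042) fell from 23.9, 24.5 and 25.1 CPM to 11.9, 13.8 and 14.7 CPM (1.81-fold, log2 fold change -0.86 ± 0.10 SE, adjusted p = 1.3e-06), and NSL1 fell 1.43-fold, from 40.0 ± 2.62 to 28.0 ± 1.08 CPM. KNL1 (chr15:40594020-40664342), the platform on which checkpoint proteins gather, fell from 105, 89.7 and 91.2 CPM to 55.8, 61.2 and 62.2 CPM (1.59-fold, log2 fold change -0.67 ± 0.08 SE, adjusted p = 9.0e-07). Its partner ZWINT fell 1.64-fold, from 149 ± 0.348 to 90.9 ± 2.04 CPM.

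All 4 genes of the Ndc80 complex, the microtubule coupler, fell more than 3-fold. NUF2 (chr1:163266576-163355764) fell from 86.4, 98.0 and 89.5 CPM to 15.6, 22.8 and 22.4 CPM (4.49-fold, log2 fold change -2.17 ± 0.12 SE, edgeR adjusted p = 1.2e-08). NDC80 (chr18:2571511-2616635), whose protein dimerises with NUF2, fell from 127, 125 and 112 CPM to 33.4, 41.1 and 39.2 CPM (3.21-fold, log2 fold change -1.68 ± 0.08 SE, adjusted p = 4.0e-11). In both, doxorubicin replicate 1 was the lowest library and no doxorubicin value came near the DMSO range. SPC24 and SPC25, which form the other end of the rod, fell 3.30-fold (from 49.1 ± 5.37 to 14.8 ± 1.88 CPM) and 3.35-fold (from 32.2 ± 2.56 to 9.61 ± 0.987 CPM). Per kilobase of exon, the mean of the 4 Ndc80 genes was 1.60 to 1.64 times the mean of the 4 Mis12 complex genes in DMSO and 0.481 to 0.573 times after doxorubicin, so the order of the complexes was reversed in every library. Within the Ndc80 complex, SPC25 stayed near SPC24, at 0.943 to 1.12 times its level in DMSO and 0.897 to 1.06 times after doxorubicin. These ratios were chosen after the values were seen and are given without a test.

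The 3 genes of the Ska complex fell. SKA3 (chr13:21153595-21176602) fell from 37.5, 39.6 and 37.9 CPM to 15.4, 17.0 and 15.2 CPM (2.41-fold, log2 fold change -1.27 ± 0.09 SE, edgeR adjusted p = 2.0e-09). SKA1 (chr18:50374995-50394173), the microtubule-binding subunit, fell from 35.5, 34.9 and 35.5 CPM to 23.1, 23.4 and 21.7 CPM (1.55-fold, log2 fold change -0.63 ± 0.08 SE, adjusted p = 3.3e-06). In each, the libraries of a group lay close together and the groups were apart. SKA2 fell 2.13-fold, from 93.0 ± 1.80 to 43.7 ± 4.30 CPM.

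Both corona genes fell, with doxorubicin replicate 1 the lowest library in each. CENPE (chr4:103105806-103198409), a kinesin that moves chromosomes to the spindle equator, fell from 114, 109 and 94.3 CPM to 15.1, 24.3 and 22.8 CPM (5.09-fold, log2 fold change -2.35 ± 0.17 SE, edgeR adjusted p = 5.0e-06). CENPF (chr1:214603195-214664588), a large coiled-coil protein that peaks in G2 and mitosis, fell from 435, 384 and 372 CPM to 95.1, 131 and 124 CPM (3.40-fold, log2 fold change -1.76 ± 0.11 SE, adjusted p = 2.9e-07). For each, the highest doxorubicin library was far below the lowest DMSO library. CENPJ, whose protein builds centrioles, and CENPV, whose protein is found at kinetochores in mitosis but belongs to none of the complexes above, were not called. CENPJ was at 27.8 ± 1.02 and 28.6 ± 1.94 CPM (95% interval -0.14 to 0.22, adjusted p = 0.67), and CENPV at 31.0 ± 3.17 and 32.5 ± 0.464 CPM (interval -0.12 to 0.25, adjusted p = 0.51).

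The order of levels changed with treatment. Per kilobase of exon, CENPB was the highest of the 34 in DMSO, at 116 ± 9.06 CPM per kilobase, followed by ZWINT (62.6 ± 0.146), CENPX (46.5 ± 3.28) and CENPW (40.7 ± 1.43). CENPW and CENPB came first after doxorubicin, at 70.9 ± 2.69 and 69.7 ± 4.02 CPM per kilobase, closer than their spread. CENPA went from rank 12 to rank 30 and CENPE from rank 24 to rank 31, whereas CENPU went from rank 13 to rank 7 and MIS12 from rank 18 to rank 9. The lowest levels in DMSO were those of CENPP (1.37 ± 0.0597), CENPC (1.73 ± 0.279) and CENPS (1.76 ± 0.284), of which the last 2 did not differ beyond their spread. Exon length here is the sum over all annotated exons, so genes with long or rarely used exons come out low. How reads in exon bases shared by genes were counted is not given, which touches the levels of CENPP and CENPS. Across the 34 genes, the log2 per-kilobase level in DMSO and the log2 fold change had a Pearson correlation of -0.21, with library depth and scaling shared by all points.

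**Figure D4:**
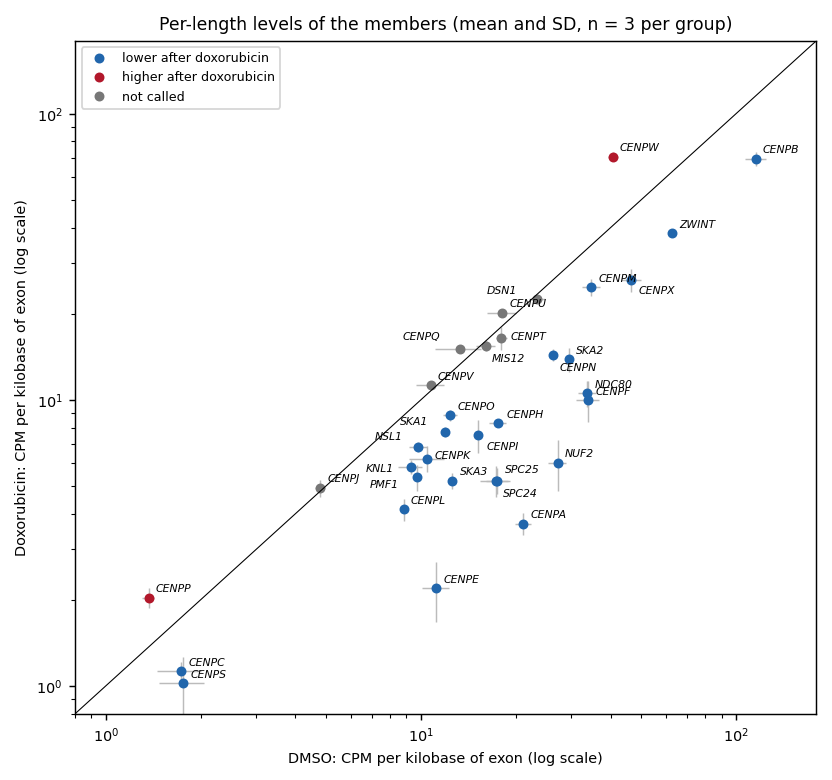
Each point is 1 gene, with its mean CPM per kilobase of exon in DMSO on the horizontal and after doxorubicin on the vertical log axis, and bars of 1 SD (n = 3). Genes on the diagonal kept their level; CENPA and CENPE lie farthest below it, and CENPW and CENPP above it, as do, by less, CENPQ, CENPU, CENPJ and CENPV, which were not called.

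Genes that load, regulate or dock on this assembly were then counted in the same test, together with 7 proliferation and arrest genes. Of these 36, called partner genes here and listed in their plot, 27 fell, 3 rose and 6 were not called. Their median log2 fold change was -0.75. The proliferation and arrest genes gave 3 of the falls and 1 of the rises. Over all genes tested, 32.0% were called lower and 32.7% higher. Of the 6 genes for deposition of CENP-A, 5 fell and RBBP4, a general histone chaperone, was not called. HJURP, the chaperone dedicated to CENP-A, fell most among them, from 121, 132 and 131 CPM to 27.3, 38.0 and 38.7 CPM (3.68-fold, log2 fold change -1.88 ± 0.11 SE, edgeR adjusted p = 2.5e-08). All 4 genes of the RZZ complex and its dynein adaptor fell; SPDL1, the adaptor Spindly, fell 2.62-fold from 153 ± 3.83 to 58.5 ± 8.56 CPM. All 6 genes of the chromosomal passenger complex and the shugoshins, which guard the inner centromere, fell, 5 of them at least 2-fold. CDCA8, the subunit borealin, fell 4.24-fold from 167 ± 9.99 to 39.3 ± 5.11 CPM.

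Of the 6 spindle checkpoint genes, 4 fell, 1 rose and BUB3 was not called. BUB1, a kinase that binds KNL1, had 138 ± 9.84 CPM in DMSO and 24.3 ± 3.94 CPM after doxorubicin, a 5.70-fold fall (log2 fold change -2.51 ± 0.10 SE, edgeR adjusted p = 7.8e-11) close to that of CENPA. MAD1L1, whose protein carries MAD2 at the kinetochore and at nuclear pores, went the other way: it had 68.7, 68.0 and 70.7 CPM in DMSO and 129, 111 and 117 CPM after doxorubicin, and rose 1.72-fold (adjusted p = 4.5e-08). Of 6 genes that act at the microtubule end, 5 fell and CLASP1 was not called. KNSTRN, a partner of astrin, fell 3.16-fold from 87.2 ± 3.19 to 27.5 ± 3.89 CPM. Among 7 proliferation and arrest genes, 3 fell, 3 were not called and CDKN1A, the gene for the cell cycle inhibitor p21, rose 35.9-fold. FOXM1, a mitotic transcription factor, fell 2.70-fold from 364 ± 22.4 to 135 ± 9.04 CPM, and the proliferation marker MKI67 fell 3.26-fold from 581 ± 12.4 to 178 ± 18.4 CPM. MYBL2, which encodes B-MYB, was at 303 ± 17.8 and 287 ± 19.6 CPM and was not called (95% interval -0.22 to 0.06, adjusted p = 0.31).

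**Figure D5:**
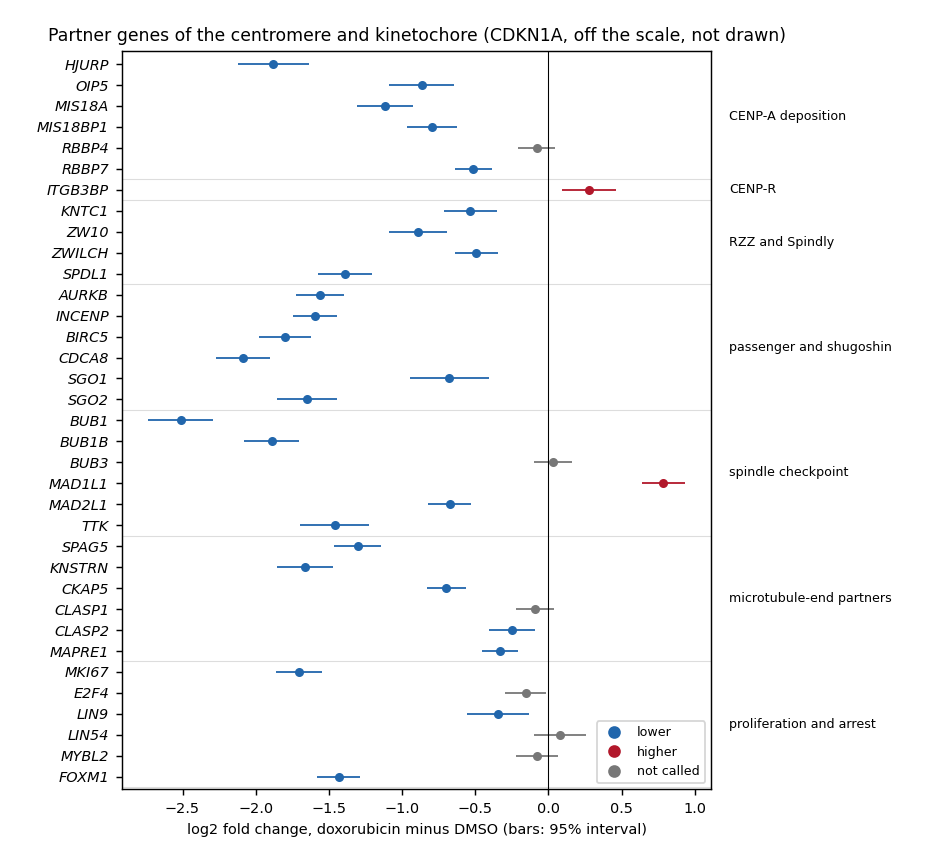
Log2 fold changes of the partner genes with 95% intervals, grouped by list and coloured by call. MAD1L1 (0.79) and ITGB3BP (0.28) are the points called higher, BUB1 (-2.51) is the lowest, and CDKN1A (5.16) is off the scale and not drawn.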

How the data were processed

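Gene-level raw counts of the 6 libraries were deposited in 1 table, which, per the file headers, came from featureCounts. STAR, SAMtools, Subread and GRCh38 (hg38) are listed in the submitters' processing notes, without versions or settings, and the labels' protocols give an unstranded poly(A) library. The counting unit (reads or pairs) and the treatment of reads shared by genes are not given in the sources used here. The deposited summed exon length of each gene served for per-kilobase values. Of 58299 gene IDs, 57717 had a symbol in a name table, and 58179 were in GENCODE release 29, which supplied gene types. Coordinates are 1-based and those of the table. Columns of other samples numbered 0.

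edgeR 4.0.16 (R 4.3.3) was used for testing: filterByExpr (minimum count 10, total 15), TMM and a robust, two-sided quasi-likelihood test with treatment as the only term, adjusted by Benjamini-Hochberg over 15358 genes. SE is the absolute log2 fold change over the root of F, and intervals are 95%. The procedure was run on simulated counts with 200 genes changed. It recovered 82.4% of changes at 1.5-fold, 93.9% at 2-fold and 100% at 4-fold, with 7 false calls among 14414 unchanged genes. Far fewer genes changed there than were called here, so the simulation cannot vouch for the scaling when most genes change. Each library counted as 1 replicate. Libraries of 1 group differed beyond counting noise (chi-square over its degrees of freedom, 2.82 to 9.39), which does not show that they were separate cultures. The genes and lists were chosen with earlier results of these data known. Every member is named; full statistics are given for CENPA, CENPE, CENPF, NDC80 and KNL1, for the lowest and highest fold change of each complex of 3 or more genes, for members that rose, and for the largest change and any call against the median in each partner list. Alternatives were DESeq2 1.42.0, other scalings and filters, a replicate block, each library left out, glmTreat at 1.5-fold, adjusted p under 0.01, and members with over 10% of exon bases in other genes left out.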

Additional observations from a re-analysis of the deposited data

How the results depend on the processing

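The count of 25 genes that fell was the same under DESeq2, RLE, upper-quartile and library-total scaling, no filter, a filter of 1 CPM in 3 libraries, adjusted p under 0.01, and each library left out (25 to 25); it was 17 when tested against a 1.5-fold change with glmTreat and 21 without genes over 10% in other exons. Of the 2 that rose, 1 was left with glmTreat and 1 without genes over 10% in other exons, and library totals only gave 3. Leaving aside glmTreat, the call and direction held for 31 of 34 genes under the other scalings and filters, DESeq2, the replicate block and each library left out; the exceptions were CENPU, called with library totals only, and 2 uncalled genes whose sign turned, CENPJ without doxorubicin replicate 2 (-0.0094; leave-one-out range -0.0094 to 0.10) and CENPV without DMSO replicate 1 (-0.0202; range -0.0202 to 0.12). Among partner genes the uncalled BUB3 turned without DMSO replicate 1 (-0.0195; range -0.0195 to 0.0541), LIN9 was not called without doxorubicin replicate 3, and E2F4 was called lower without DMSO replicate 1, without doxorubicin replicate 1 and with no filter. Leaving out each library gave 26 to 28 partner genes lower and 2 to 3 higher, 4519 to 4824 genes lower and 4703 to 5005 higher over all genes, and a difference in summed share of -0.111 to -0.103 percentage points; against the counts of tested genes without the 50 most abundant, that difference was -0.125 in place of -0.107. The cause of these shifts was not tested. With the replicate number as a block, 25 members fell and 2 rose, and 4917 genes fell and 5003 rose overall. Same-numbered libraries deviated together at r of only -0.02 to 0.05 across genes, so the numbers were not taken as pairs. Scaled values are relative, so a change shared by every gene cannot be detected. CENPS, at 24 to 63 counts per library, is the least precise value.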
